A study of Homo sapiens with 6 samples.

Results

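The genes of the RNA interference machinery were examined in LNCaP cells, an androgen-responsive line from a lymph node metastasis of prostate cancer, after knockdown of TCTP. The set was fixed as all array probes of 10 genes, namely DROSHA, DGCR8, XPO5, DICER1, TARBP2, PRKRA and the 4 Argonaute genes AGO1 to AGO4, which older annotation lists as EIF2C1 to EIF2C4. These 10 genes had 16 of the 48803 probes of the array and were 10 of the 18665 genes to which a probe could be assigned. One group of 3 samples was transfected with siRNA against TCTP, and the 3 control samples received siRNA against luciferase (Luc), which has no target in human cells. In both groups the siRNA was given at 100 nM, in medium free of serum during transfection, and the cells were harvested after 72 h. The methods name a single siRNA for each group, so that effects of its sequence and of TCTP loss cannot be told apart. Every sample therefore carried an siRNA, and no array of untransfected or mock-transfected cells was part of the comparison. The series record calls the 3 samples of a group biological replicates.

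In RNA interference, microRNA genes are transcribed as long primary transcripts that fold into hairpins. The Microprocessor, made of the nuclease DROSHA and its RNA-binding partner DGCR8, cuts out the hairpin in the nucleus, and exportin 5 (XPO5) carries it to the cytoplasm together with the GTPase RAN. There the nuclease DICER1, with TRBP (encoded by TARBP2) or PACT (encoded by PRKRA), cuts the hairpin to a duplex, and an Argonaute protein keeps 1 strand as its guide. A synthetic siRNA enters this pathway at the Argonaute step, where AGO2 is the human Argonaute best known for cutting a fully matched target.

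RNA of each sample was hybridised to an Illumina HumanWG-6 v3 array, which gave 1 summary intensity and 1 detection p per probe. Array medians lay between 35.6 and 43.4 intensity units, and an array detected between 12828 and 13741 probes at a detection p under 0.01. Values below are quantile-normalized log2 intensities without background subtraction, which compresses the changes of dim probes, and the number of arrays limits their precision. A probe was tested when it was detected on at least 3 of the 6 arrays, and it was called at a Benjamini-Hochberg adjusted p under 0.05 from limma over all 13484 such probes. Of the luminal prostate markers, all 8 with a probe were detected, while no basal, fibroblast or leukocyte marker was. Of the endothelial markers VWF was detected. The direction of every signed value rests on the sample labels. For the interferon-induced gene IFIT1, chosen after its values were seen, it is opposite to the direction the study describes for interferon-induced genes from arrays and qPCR. TPT1, which encodes TCTP, had a pair of probes. On ILMN_1789614 its log2 signal was 12.25, 12.47 and 12.39 after TCTP siRNA, against 12.95, 13.17 and 13.23 after Luc siRNA, a log2 change of -0.75 (adjusted p = 0.00331 from limma). On the brighter ILMN_2094718 the groups overlapped, and the log2 change was -0.19 (95% interval -0.43 to 0.05, adjusted p = 0.471).

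All 10 genes of the machinery had at least 1 tested probe, and none of their 13 tested probes passed the test in either direction. Over all tested probes 1.93% were called (0.794% as higher and 1.13% as lower). At an unadjusted p under 0.05 from limma, 4 of the 13 probes were higher after TCTP siRNA and 1 was lower, against 7.16% and 7.37% of all tested probes. The 4 were those of AGO1, AGO2, 1 of the probes of AGO3 and 1 of DICER1, and the other was a probe of TARBP2. The groups did not overlap on 2 probes that were higher and on 1 that was lower, against 9.79% and 9.97% of all tested probes. The log2 changes ran from -0.23 to 0.41 with a median of 0.08, where the median of all tested probes was 0.0039, and 8 of the 13 were above 0 (61.5%, against 51.1% of all tested probes). The 95% interval lay within a 2-fold change on all 13 probes and within a 1.5-fold change on 9. Of all 13484 tested probes, 13418 had an interval within a 2-fold change and 12473 within a 1.5-fold change. The probe closest to the threshold was that of AGO1.

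**Figure D1:**
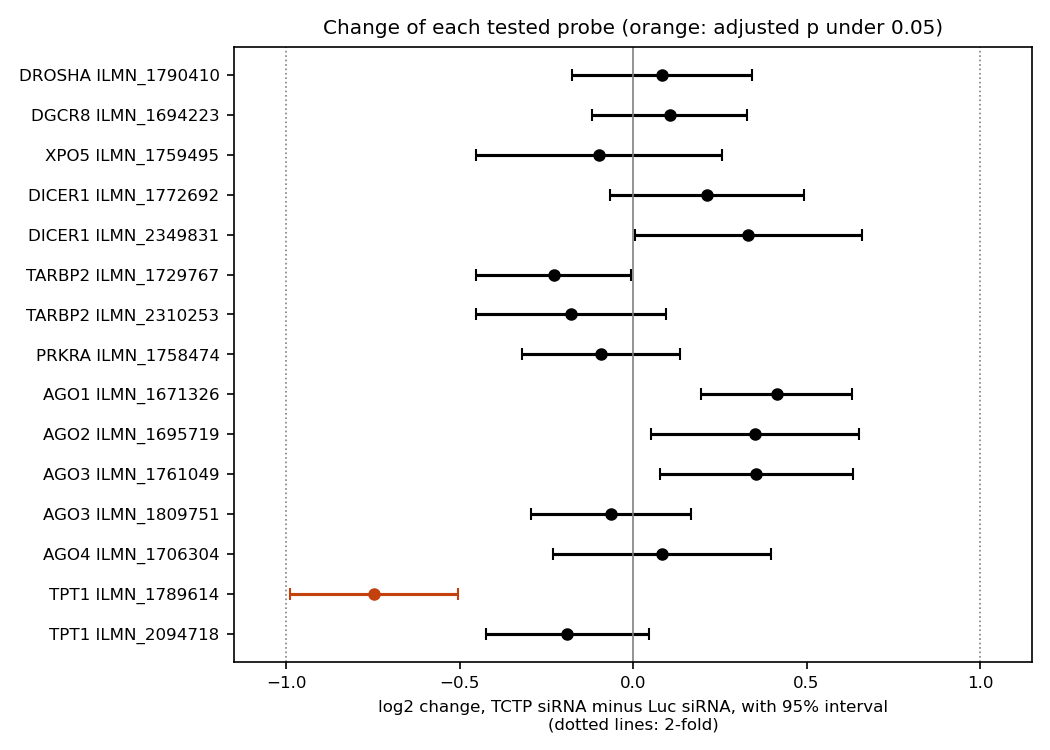
Log2 change of each tested probe of the RNA interference genes and of TPT1 (TCTP siRNA minus Luc siRNA), with its 95% interval from limma and dotted lines at a 2-fold change. Of the probes shown, ILMN_1789614 of TPT1 had an adjusted p under 0.05, and the interval of AGO1 lay furthest above 0.

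AGO1 encodes an Argonaute that binds microRNAs and acts mainly through repression of translation and decay of the target. The AGO1 log2 signal was 7.59, 7.55 and 7.47 after TCTP siRNA, against 7.07, 7.21 and 7.09 after Luc siRNA. All 3 arrays of TCTP siRNA were above all 3 of Luc siRNA, and the means were 7.54 ± 0.06 and 7.12 ± 0.08 (SD, n = 3 each). The AGO1 log2 change was 0.41 (standard error 0.10, 95% interval 0.20 to 0.63), which is a 1.33-fold higher signal, with an adjusted p = 0.0546 from limma. It ranked 282 of the 13484 probes by p. With 1 probe per gene the adjusted p was 0.0441, with the mean of a gene's probes 0.0354 and with no detection filter 0.0368, so that AGO1 passed in these 3 settings. Under the other settings tried the adjusted p of AGO1 lay between 0.0523 and 0.226, with the highest under median scaling.

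**Figure D2:**
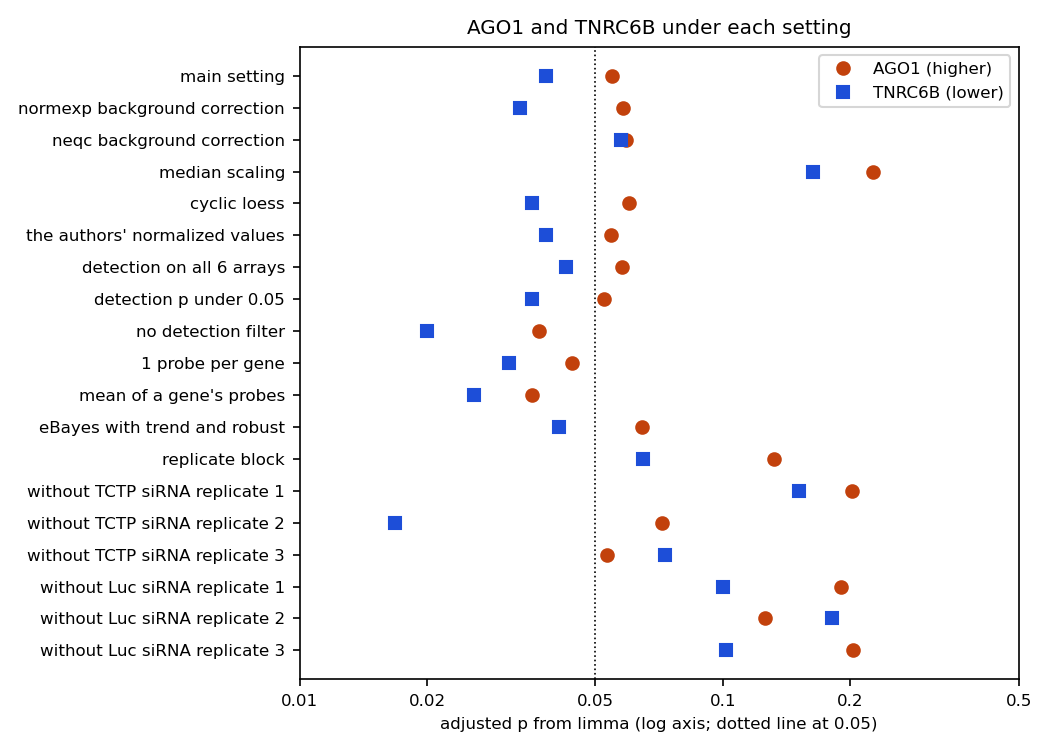
Adjusted p from limma (log axis) for AGO1, higher after TCTP siRNA, and TNRC6B, lower after TCTP siRNA, under each processing setting, with a dotted line at 0.05. AGO1 lies left of the line in 3 settings, and TNRC6B lies right of it with neqc, median scaling, the replicate block and all single arrays left out but TCTP siRNA replicate 2.

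The AGO1 promoter is shown because AGO1 was the member nearest to a call. The RefSeq window (GRCh38.p14) starts 250 bases before the start of the listed transcript and is printed up to the last base before that start, on the plus strand at chr1:35882959-35883208. Capitals mark the motifs that were found.
AGO1 promoter: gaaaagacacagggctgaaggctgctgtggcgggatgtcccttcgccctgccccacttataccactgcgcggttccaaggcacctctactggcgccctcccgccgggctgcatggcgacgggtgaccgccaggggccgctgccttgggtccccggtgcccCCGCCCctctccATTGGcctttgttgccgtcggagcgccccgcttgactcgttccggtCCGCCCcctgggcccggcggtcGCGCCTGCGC
Searched on both strands, the stretch held 2 GC boxes (GGGCGG, the motif of SP1), 1 CCAAT box (CCAAT) and 1 match to the motif of NRF1, which did not overlap one another. Windows of 300 bases, from 250 before to 50 after a start, were listed for 9 of the 10 genes, with 17 windows in all, of which 13 held a GC box, 8 a CCAAT box and 2, of AGO1 and XPO5, the NRF1 motif. Of all 35116 listed windows 45.0% held a GC box, 34.6% a CCAAT box and 5.78% the NRF1 motif. The core of the interferon-stimulated response element (ISRE core), which was in 3.57% of all windows, and the gamma-activated site (TTCNNNGAA), in 7.66%, were in no window of the 9 genes.

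AGO2, the slicing Argonaute, had log2 signals of 10.27, 9.91 and 9.85 after TCTP siRNA, against 9.43, 9.88 and 9.67 after Luc siRNA. The groups overlapped, since Luc siRNA replicate 2 was above TCTP siRNA replicate 3. The AGO2 log2 change was 0.35 (standard error 0.14, 95% interval 0.05 to 0.65, adjusted p = 0.256 from limma). The SD of AGO2 was 0.23 within either group.

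AGO3 and AGO4 encode the remaining Argonautes, and AGO4, AGO1 and AGO3 stand next to each other in this order on chromosome 1 with no other protein-coding gene between them. AGO3 was measured by a pair of probes that gave different values. On ILMN_1761049 the AGO3 log2 signal was 7.21, 6.86 and 7.20 after TCTP siRNA, against 6.90, 6.78 and 6.52 after Luc siRNA. Replicates 1 and 3 of TCTP siRNA were above every array of Luc siRNA and replicate 2 was not, and the log2 change was 0.35 (95% interval 0.08 to 0.63, adjusted p = 0.208 from limma). On the dimmer ILMN_1809751 the AGO3 signal was 6.25, 6.40 and 6.13 after TCTP siRNA, against 6.37, 6.25 and 6.35 after Luc siRNA, and the log2 change was -0.06 (95% interval -0.29 to 0.17, adjusted p = 0.834). The changes of these AGO3 probes differed by 0.42 log2 units (brighter minus dimmer), and the groups overlapped in this difference (exact two-sided permutation over arrays, p = 0.3, where 0.1 is the smallest that 3 arrays against 3 allow). Over the 4 probe pairs compared the adjusted p for AGO3 was 0.6. The pair of TPT1 differed by 0.56 log2 units (brighter minus dimmer) without overlap of the groups (exact permutation, p = 0.1, adjusted p = 0.4). The AGO4 probe was detected on 2 of 3 arrays in each group. Its log2 signal was 6.19, 5.63 and 6.06 after TCTP siRNA, against 6.01, 5.97 and 5.65 after Luc siRNA, and the AGO4 log2 change was 0.08 (95% interval -0.23 to 0.40, adjusted p = 0.841 from limma). The lowest array of each group, TCTP siRNA replicate 2 and Luc siRNA replicate 3, was the one on which AGO4 was not detected.

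**Figure D3:**
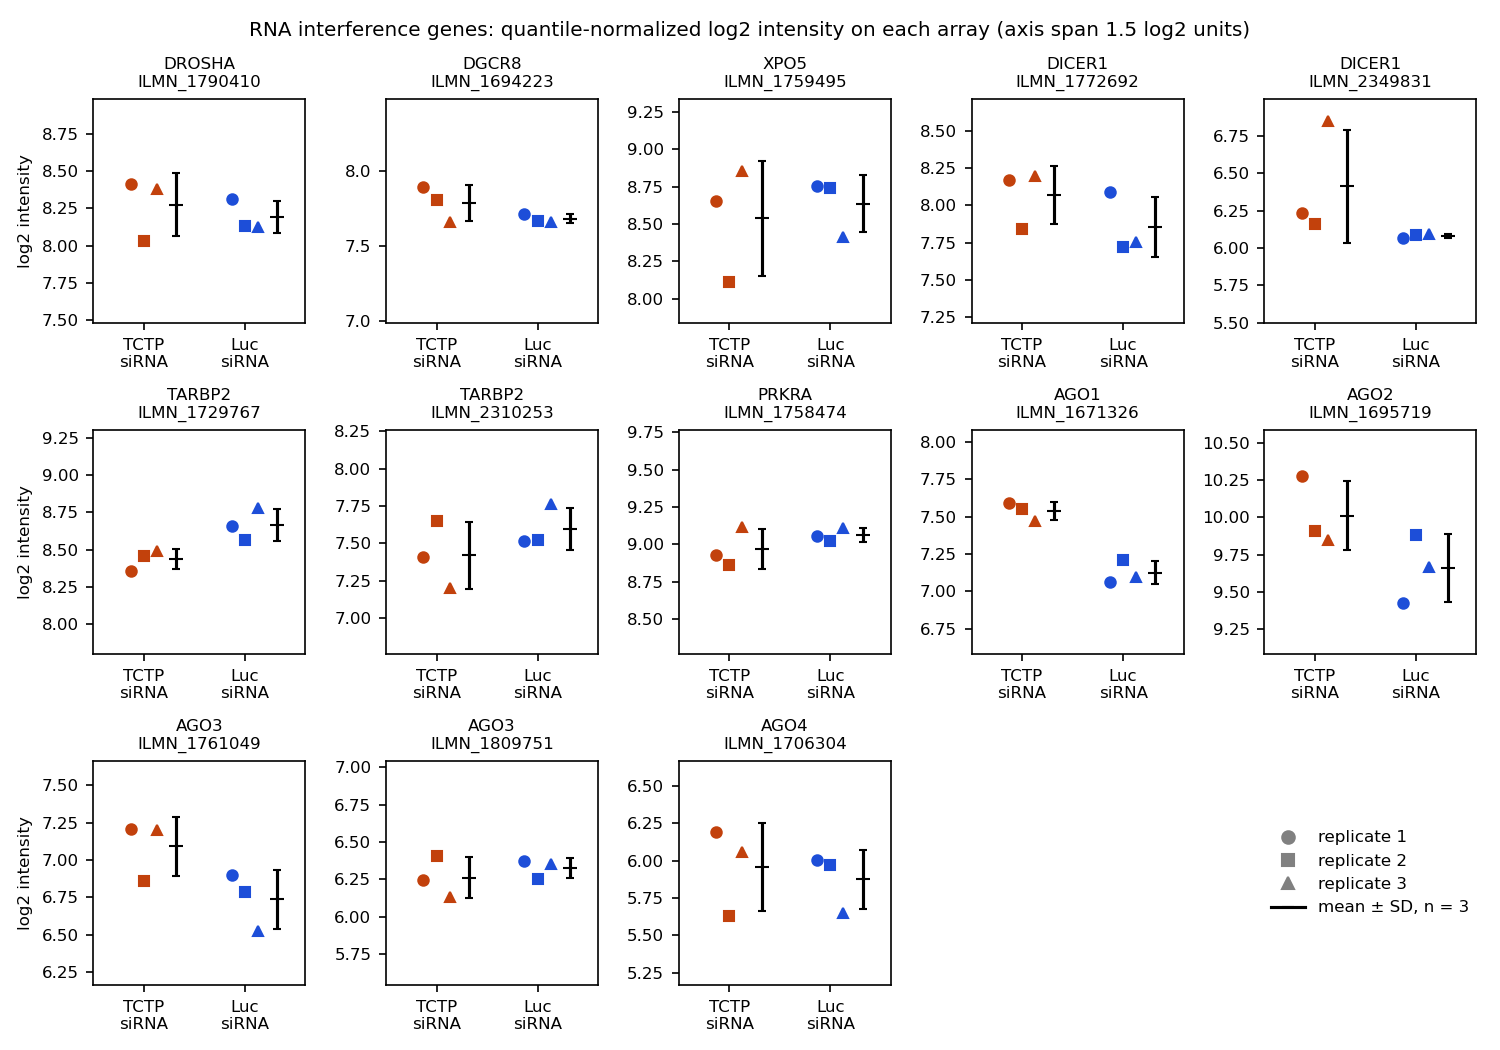
Quantile-normalized log2 intensity of the 13 tested probes of the RNA interference genes on each array, with 3 arrays of TCTP siRNA (left) and 3 of Luc siRNA (right) in each panel and the mean ± SD beside them. The groups are apart for AGO1, for ILMN_2349831 of DICER1 and for ILMN_1729767 of TARBP2, and overlap on the other 10 probes.

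DICER1 had 4 probes, of which 2 were tested. On ILMN_1772692 the DICER1 log2 signal was 8.17, 7.84 and 8.20 after TCTP siRNA, against 8.09, 7.72 and 7.76 after Luc siRNA. The groups overlapped, and the log2 change was 0.21 (95% interval -0.07 to 0.49, adjusted p = 0.50 from limma). On ILMN_2349831 the DICER1 signal was 6.23, 6.16 and 6.85 after TCTP siRNA, against 6.07, 6.09 and 6.09 after Luc siRNA. The groups were apart, but TCTP siRNA replicate 3 stood well above the other arrays of its group and set most of the log2 change of 0.33 (95% interval 0.0047 to 0.66, adjusted p = 0.339). Without that array the log2 change on this DICER1 probe was 0.11. The changes on the tested DICER1 probes differed by -0.12 log2 units (brighter minus dimmer, two-sided exact permutation test over arrays, p = 0.6). The other DICER1 probes, ILMN_1686725 and ILMN_1706100, were detected on 0 of the 6 arrays, with intensities between 34.8 and 56.9.

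DROSHA, the nuclease of the Microprocessor, had log2 signals of 8.41, 8.03 and 8.38 on ILMN_1790410 after TCTP siRNA, against 8.31, 8.13 and 8.13 after Luc siRNA. The range of the TCTP siRNA arrays enclosed that of the Luc siRNA arrays, and the DROSHA log2 change was 0.08 (95% interval -0.18 to 0.34, adjusted p = 0.804 from limma). The other DROSHA probe, ILMN_2152095, was detected on 0 of the 6 arrays. DGCR8, which recognises the hairpin for DROSHA, had 7.90, 7.81 and 7.66 after TCTP siRNA, against 7.72, 7.67 and 7.66 after Luc siRNA. The Luc siRNA arrays of DGCR8 lay close together (SD 0.03) at the lower end of the TCTP siRNA range, and the log2 change was 0.11 (95% interval -0.12 to 0.33, adjusted p = 0.706).

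MicroRNAs lie within the spans of DGCR8 and DICER1 themselves, and the DGCR8 transcript is known to be cut by the Microprocessor that its product belongs to. AGO2 was left out of the search for microRNAs, so that its span was not examined. The mature sequences are shown because these microRNAs lie within the spans of genes of the machinery. Whether their hairpins are cut from the transcripts that the probes read was not tested. They are from RefSeq (GRCh38.p14), with the seed, bases 2 to 8, in capitals. The first 3 lie in DGCR8 on chromosome 22 and the last 2 in DICER1 on chromosome 14.
hsa-miR-3618: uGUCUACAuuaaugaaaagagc
hsa-miR-1306-5p: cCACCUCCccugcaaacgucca
hsa-miR-1306-3p: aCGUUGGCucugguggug
hsa-miR-3173-5p: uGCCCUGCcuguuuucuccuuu
hsa-miR-3173-3p: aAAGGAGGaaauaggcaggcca
No seed was shared among these 5 microRNAs, and no mature microRNA was measured here. The intervals given for the host transcripts allow a DGCR8 level between 0.922 and 1.26 times that of Luc siRNA, and a DICER1 level between 0.954 and 1.41 times on its brighter probe.

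XPO5, the exportin of hairpins, varied most within the groups among the 13 probes. Its log2 signal was 8.65, 8.11 and 8.85 after TCTP siRNA, against 8.76, 8.74 and 8.42 after Luc siRNA. TCTP siRNA replicate 2 was the lowest array by a wide margin and replicate 3 the highest, and the XPO5 groups overlapped. The XPO5 log2 change was -0.10 (standard error 0.16, 95% interval -0.45 to 0.26, adjusted p = 0.834 from limma), and it was 0.12 without TCTP siRNA replicate 2.

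TARBP2 and PRKRA encode the double-stranded RNA-binding partners of DICER1, and both proteins also bind the kinase PKR, which TRBP inhibits and PACT activates. On ILMN_1729767 the TARBP2 log2 signal was 8.36, 8.46 and 8.49 after TCTP siRNA, against 8.66, 8.56 and 8.78 after Luc siRNA. The groups did not overlap, and the log2 change was -0.23 (standard error 0.10, 95% interval -0.45 to -0.0050, adjusted p = 0.334 from limma). On ILMN_2310253 the TARBP2 signal was 7.41, 7.65 and 7.20 after TCTP siRNA, against 7.51, 7.52 and 7.76 after Luc siRNA, where the groups overlapped and the log2 change was -0.18 (95% interval -0.45 to 0.09, adjusted p = 0.575). The TARBP2 probes differed by -0.05 log2 units in their changes (brighter minus dimmer, two-sided exact permutation test over arrays, p = 0.8). PRKRA had 8.93, 8.86 and 9.12 after TCTP siRNA, against 9.05, 9.02 and 9.11 after Luc siRNA, with overlap and a log2 change of -0.09 (95% interval -0.32 to 0.14, adjusted p = 0.755).

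The spread between arrays of a group was larger on these probes than on a typical probe. The median within-group SD of the 13 probes was 0.188 log2 units, against 0.134 for all tested probes, and it ran from 0.0701 for AGO1 to 0.303 for XPO5. TCTP siRNA replicate 2 was the lowest of its 3 arrays on 7 of the 13 probes, with a median deviation of -0.11 log2 units from the group mean. It also had the fewest detected probes, 12828, of the 6 arrays. Luc siRNA replicate 3 had nearly as few, 12897, and the remaining arrays had between 13407 and 13741. The part of these differences in the members' values was not tested. Without TCTP siRNA replicate 2 the median log2 change of the 13 probes was 0.20, and without TCTP siRNA replicate 1 it was 0.015. Without TCTP siRNA replicate 3 the median was 0.034, without Luc siRNA replicate 1 it was 0.15, without Luc siRNA replicate 2 it was 0.10 and without Luc siRNA replicate 3 it was 0.05. No probe of the set was called in any of these 6 fits.

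Beyond the 10 genes, 7 lists of genes that act with them were compared, with 95 tested probes of 72 genes. By limma 2 of these probes passed as lower and 0 as higher, against 1.13% and 0.794% of all tested probes, while at an unadjusted p under 0.05 there were 3 lower and 10 higher, against 7.37% and 7.16% of all tested probes. One of the pair, a probe of AJUBA, was tested only through its detection after Luc siRNA, and with detection required on all 6 arrays 1 probe of the list concerned, that of TNRC6B, was called. Both belonged to the list of Argonaute partners, which had 19 tested probes of 13 genes with a median log2 change of 0.08. TNRC6B, a GW182 protein that binds Argonaute and recruits the deadenylases, fell after TCTP siRNA. The TNRC6B log2 signal on ILMN_1726786 was 8.35, 8.55 and 8.23 after TCTP siRNA, against 8.85, 8.98 and 8.80 after Luc siRNA. The groups were clearly apart, with means of 8.38 ± 0.16 and 8.88 ± 0.09 (SD, n = 3 each). The TNRC6B log2 change was -0.50 (standard error 0.11, 95% interval -0.74 to -0.26, adjusted p = 0.0383 from limma), a signal 0.707 times that of the control. This call of TNRC6B did not hold when Luc siRNA replicate 1, 2 or 3 was left out (adjusted p 0.10, 0.181 and 0.102), nor without replicate 1 or 3 of TCTP siRNA (0.151 and 0.073), with neqc (0.0574) or with median scaling (0.163). The other TNRC6B probes, ILMN_1725739 and ILMN_1771201, were detected on 0 of the 6 arrays. The related TNRC6A, chosen after its values were seen, had 7.49, 7.51 and 7.68 after TCTP siRNA, against 7.43, 7.28 and 7.31 after Luc siRNA, with a log2 change of 0.22 (95% interval -0.0070 to 0.44, adjusted p = 0.362). The difference between TNRC6A and TNRC6B was not tested.

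AJUBA, a LIM-domain protein that binds Argonaute, had the other probe under the threshold. On ILMN_1811535 the AJUBA log2 signal was 5.88, 5.70 and 5.88 after TCTP siRNA, against 6.11, 6.48 and 6.48 after Luc siRNA. This probe was detected on all 3 arrays of Luc siRNA and on none of TCTP siRNA, so that it passed the detection filter only through the group where it was brighter. AJUBA therefore has only a bound on the means, lower by at least 1.29-fold, to which no error is attached. The limma test (adjusted p = 0.0396, and 0.0203 with no detection filter) compared the signals themselves and not this bound. The 95% interval of the AJUBA signal on this probe ran from 0.576 to 0.827 times that of Luc siRNA. Such a bound sets the mean signal of the brighter group against a floor for the dimmer group, taken on each array as this probe's signal or the lowest signal of a detected probe, whichever was higher, and averaged. Another AJUBA probe, ILMN_1687275, detected on 5 of the 6 arrays, did not share the direction and had a log2 change of 0.10 (95% interval -0.14 to 0.33, adjusted p = 0.740). The AJUBA call did not hold when replicate 1 or 2 of TCTP siRNA was left out (adjusted p 0.125 and 0.0726), nor without replicate 2 or 3 of Luc siRNA (0.183 and 0.175), with normexp (0.0693) or with median scaling (0.191).

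**Figure D4:**
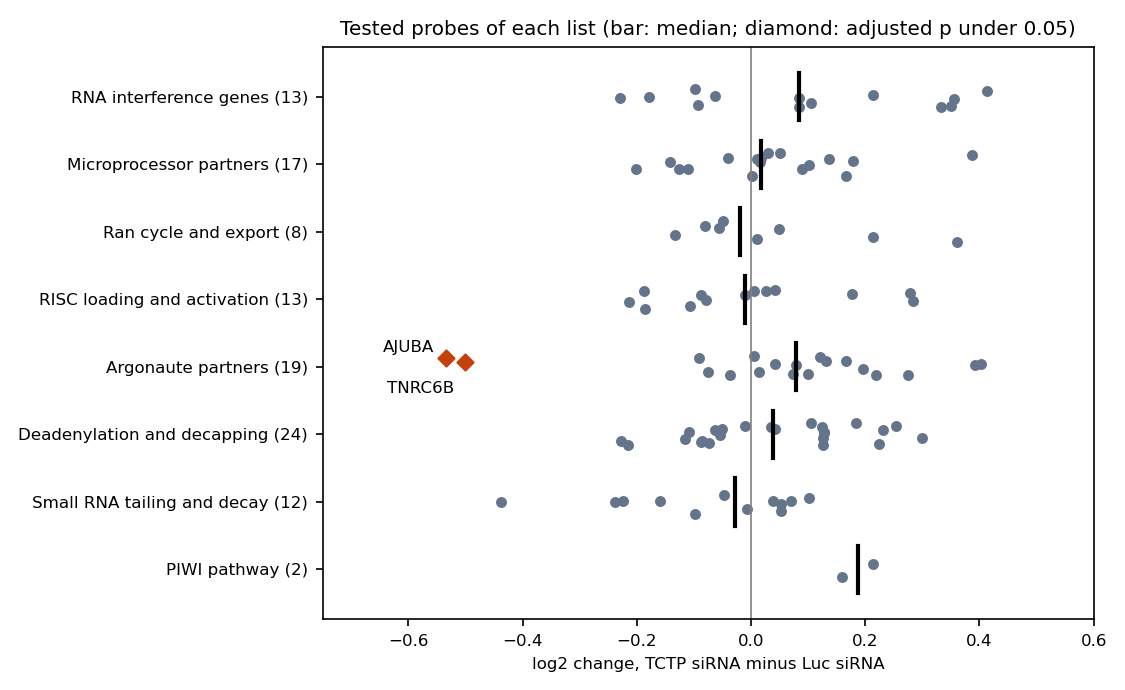
Log2 change (TCTP siRNA minus Luc siRNA) of each tested probe of the RNA interference genes and of 7 lists of genes that act with them, with the number of tested probes in brackets, a bar at the median and diamonds for probes with an adjusted p under 0.05. The probes that passed are those of TNRC6B and of AJUBA, the latter tested only through its detection after Luc siRNA. List medians lie between -0.03 and 0.19.

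No probe passed the test on the other 6 lists in either direction, and their counts at an unadjusted p under 0.05 are to be read against the shares of all tested probes given above. Of the Microprocessor partners, 17 probes of 12 genes were tested, with 1 higher and none lower at an unadjusted p under 0.05 from limma and a median log2 change of 0.02. The members with the smallest p were TARDBP, an RNA-binding protein, with 6.99, 6.78 and 7.01 after TCTP siRNA, against 6.74, 6.40 and 6.47 after Luc siRNA (log2 change 0.39, adjusted p = 0.123), and the cap-binding subunit NCBP2 (log2 change 0.18, adjusted p = 0.479). Of the Ran cycle and export genes, 8 probes of 6 genes were tested, with 1 higher and none lower at an unadjusted p under 0.05 and a median of -0.02. RANGAP1, the GTPase activator of RAN, had 10.69, 10.42 and 10.57 after TCTP siRNA, against 10.20, 10.23 and 10.16 after Luc siRNA, which did not overlap (log2 change 0.36, adjusted p = 0.107). The nucleoporin NUP153 had a log2 change of 0.21 (adjusted p = 0.407).

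The genes of RISC loading and activation, among them the HSP90 chaperones, had 13 tested probes of 10 genes, with 2 higher and none lower at an unadjusted p under 0.05 from limma and a median log2 change of -0.01. The HSP40 gene DNAJB1 had a log2 change of 0.28 (adjusted p = 0.230) and the HSP70-HSP90 organiser STIP1 one of 0.28 (adjusted p = 0.237). The deadenylation and decapping genes had 24 tested probes of 21 genes, with 3 higher and none lower at an unadjusted p under 0.05 and a median of 0.04. PATL1, a decapping factor, had a log2 change of 0.30 (adjusted p = 0.276), and CNOT9, a subunit of the CCR4-NOT deadenylase, one of 0.25 (adjusted p = 0.295). Small RNA tailing and decay had 12 tested probes of 9 genes, with 1 lower and none higher at an unadjusted p under 0.05 and a median of -0.03.

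XRN2, the nuclear 5'-to-3' exonuclease, was the member of that list closest to the threshold. On ILMN_1727617 the XRN2 log2 signal was 8.26, 8.07 and 8.10 after TCTP siRNA, against 8.71, 8.51 and 8.52 after Luc siRNA, with no overlap and a log2 change of -0.44 (95% interval -0.67 to -0.21, adjusted p = 0.0546 from limma). It passed with normexp, with 1 probe per gene and with no detection filter (adjusted p of 0.0473, 0.0444 and 0.0353). Under the other alternatives it did not pass, with an adjusted p of up to 0.35. With single arrays left out its adjusted p lay between 0.0844 and 0.205. The XRN2 probe ILMN_2196479 had a log2 change of -0.22 (adjusted p = 0.572). TENT2, a terminal nucleotidyltransferase, had a log2 change of -0.24 (adjusted p = 0.504). Of the PIWI pathway, which protects the germ line, 7 genes had a probe and TDRD1 was the one gene detected, with a log2 change of 0.21 on ILMN_2175094 (adjusted p = 0.528). The probes of PIWIL1 to PIWIL4, the germ-line relatives of the Argonautes, were detected on 0 of the 6 arrays.

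A few genes of these lists are known to be induced by interferon, and their values are given although they were chosen after they were seen. ADAR, which edits double-stranded RNA, had log2 changes of 0.0013 and 0.01 on its tested probes (95% intervals -0.29 to 0.29 and -0.28 to 0.30). PNPT1, a mitochondrial polynucleotide phosphorylase, had -0.05 and 0.05 (95% intervals -0.30 to 0.20 and -0.16 to 0.27). The helicase MOV10, which binds Argonaute, had -0.07 (95% interval -0.30 to 0.15). None of these 3 genes passed the test (adjusted p between 0.798 and 0.998 from limma). Each interval lay within a 1.5-fold change, as on 12473 of all 13484 tested probes. IFIT1, a classical interferon-induced gene outside the lists, was likewise chosen after its values were seen. By the sample labels it was lower after TCTP siRNA, with a log2 change of -3.68 (adjusted p = 8.59e-10 from limma). The study describes the opposite direction for interferon-induced genes, and IFIT1 was among the genes it measured by qPCR.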

How the data were processed

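The authors imported the scanned arrays into BeadStudio and deposited the summary intensity and the detection p-value of each probe, on a linear scale and without normalization. They also deposited intensities normalized by quantiles (J-Express, per the study's methods), which differed by at most 0.029 log2 units from those computed here. Here the intensities were quantile-normalized, log2-transformed and fitted by group in limma 3.58.1 (lmFit, eBayes, R 4.3.3) over all 13484 probes detected (p under 0.01) on at least 3 arrays. The methods name SAM without settings, so limma was used. Gene symbols came from the platform annotation, updated by gene identifier to GRCh38.p14 names (27541 of 27578 probes with 1 symbol). The members and lists were chosen with earlier results of these data known. Named are all probes of the 10 genes and TPT1 and, from each list, up to 4 called genes or else the 2 with the smallest p. Alternatives were normexp (offset 50), neqc (offset 16), median scaling, cyclic loess, the authors' values, other detection filters, 1 probe or the mean per gene, a robust eBayes with trend, a block for replicate number and each array left out. matplotlib 3.10.9 (Python 3.11.15) drew the figures.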

Additional observations from a re-analysis of the deposited data

How the results depend on the processing

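No probe of the 10 genes was called lower under any of the 18 alternatives, and 1, that of AGO1, was called higher with no detection filter, with 1 probe per gene and with the mean of a gene's probes. With single arrays left out the median log2 change of the tested probes ran from 0.015 to 0.20. Signs turned on probes with changes near 0, namely ILMN_1809751 of AGO3 (-0.14 to 0.0008, above 0 without TCTP siRNA replicate 3), AGO4 (-0.0305 to 0.25, below 0 without TCTP siRNA replicate 1 or Luc siRNA replicate 3) and XPO5 (-0.25 to 0.12, above 0 without TCTP siRNA replicate 2). The difference between the probes (brighter minus dimmer) ran from -0.26 to 0.0367 for DICER1 and from -0.19 to 0.0548 for TARBP2 with single arrays left out. TPT1 had a log2 change of -0.47 with the mean of its probes (adjusted p = 0.0189 from limma). Of the Argonaute partners, 2 probes were called lower with every array, 1 with normexp, neqc, detection on all 6 arrays, 1 probe per gene or probes averaged per gene, 0 with median scaling and 0 with the replicate block, and 0 to 1 with single arrays left out. The number called higher on that list was 0 to 1 with single arrays left out, the 1 being ELAVL1, named after its values were seen, without TCTP siRNA replicate 2. Of small RNA tailing and decay 1 probe, of XRN2, was called lower with normexp, no detection filter or 1 probe per gene. The cause of these changes was not tested.

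Over all tested probes 153 were lower and 107 higher. With the replicate block the counts were 85 and 54, with median scaling 45 and 21, and with no detection filter, over 48803 probes, 226 and 162. With single arrays left out the counts were 58 and 32 without TCTP siRNA replicate 1 and 60 and 29 without Luc siRNA replicate 2. They were 66 and 35 without Luc siRNA replicate 3 and 76 and 46 without Luc siRNA replicate 1. Without TCTP siRNA replicate 3 they were 160 and 121, and without TCTP siRNA replicate 2 they were 189 and 156. The deviations of same-numbered samples from their group means correlated at -0.08, -0.04 and -0.37, so that the numbers did not pair the samples. Between unlike numbers the correlation was 0.477 for TCTP siRNA replicate 2 with Luc siRNA replicate 3. It was 0.443 for TCTP siRNA replicate 3 with Luc siRNA replicate 1, and 0.27 for TCTP siRNA replicate 1 with Luc siRNA replicate 2. The remaining combinations were below 0. No fit paired the samples in that way, and whether they shared a run was not tested. With the block for replicate number no probe of the 10 genes was called. The adjusted p with the block was 0.132 for AGO1, 0.0648 for TNRC6B and 0.0777 for AJUBA. Dim probes such as those of AGO4 lie near background, where changes are compressed.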
